A study of Mus musculus with 6 samples.

Results

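Heat shock proteins and their DNAJ partners were compared between material labelled anti-PD-1 and material labelled control from Lewis lung carcinoma (LLC), a mouse lung tumour line. The members were the array rows that carry a single gene symbol of the families HSPA, HSPB, HSPD, HSPE, HSPH, HSP90, DNAJA, DNAJB or DNAJC, with the row of highest mean signal kept for each symbol. This gave 70 genes, 25 with an HSP name and 45 with a DNAJ name, among 18620 gene symbols with a row of their own and 21448 rows with signals. All 70 were tested, with no filter on low signals.

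Chaperones hold unfolded or newly made proteins until they reach their shape. HSP70 proteins bind and release short stretches of a client by splitting ATP. J proteins of the DNAJ family deliver the client and speed up that step, and HSP110 proteins exchange the spent nucleotide. HSP90 finishes signalling clients such as kinases, HSP60 with its lid HSP10 folds proteins inside mitochondria, and small heat shock proteins hold unfolded chains without using ATP. The heat shock factor HSF1 drives many of these genes when unfolded protein accumulates in the cytosol. The endoplasmic reticulum (ER) and mitochondria keep HSP70 and J proteins of their own.

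The anti-PD-1 group held 3 libraries of subcutaneous LLC tumour from hosts given an antibody to PD-1, which is a brake on T cells, and the control group 3 libraries of such tumour without that antibody. Per the labels' protocols, 1000000 LLC cells in Matrigel were injected under the skin at the left flank, and 250 µg of the PD-1 antibody or of an IgG2a isotype antibody went into the peritoneum at intervals of 3 days. For strain, sex and age of the mice no label was found. The series' design text describes LLC cells that survived the antibody rather than tumour tissue, and both descriptions stand. No label ties a library to an animal of its own. The p-values therefore reflect only how far these libraries scatter, and that scatter may be technical.

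Properties of the deposited table limit what a name or a direction means. Although the headers give mm10 and an array for mouse, 68 of the 70 members carried human Ensembl transcript accessions and 0 carried mouse ones, and 4 members stood on chromosomes 20 to 22, which the mouse genome lacks. The array identifier carried the chromosome of its row in 21 of the 70. Gene names below are those of the symbol column and do not settle the species. Each difference subtracts the control mean from the anti-PD-1 mean, with groups taken from the sample labels. In the authors' deposited table, however, the C average equals the Tukey biweight mean of the P signals, and the P average that of the C signals, within 0.05 in all 70 members. Plain means, which are used below, can lie farther from those averages. If those letters are right and the sample labels wrong, every direction below turns round. None of the 111 rows in which averages or SDs fail to follow from the signals is a member.

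By limma with Benjamini-Hochberg adjustment over all rows, 30 of the 70 members (42.9%) passed an adjusted p of 0.05, against 29.8% of all rows. Of these, 16 were higher in anti-PD-1 libraries, where 14.7% of all rows were, and 14 were lower, where 15.1% of all rows were. The balance turned with the scaling and the filter: 14 were higher and 16 lower after median centring, and 15 higher and 21 lower once rows dimmer than the median were removed. Of 25 HSP members 3 rose and 9 fell, and of 45 DNAJ members 13 rose and 5 fell. The 9 HSP falls became 4 without control replicate 1 or without any 1 anti-PD-1 replicate, 5 without control replicate 3 and 6 without control replicate 2. Under the same removals 12 or 13 DNAJ members rose and 5 or 6 fell. Of all rows 22.9% to 25.4% were called under these removals, against 29.8% with every library. The median difference was -0.19 for HSP members and 0.03 for DNAJ members on the log2 scale, beside 0.01 over all rows. No test of this contrast between the names was made. At least 2-fold apart and past the threshold were 8 members, 6 higher and 2 lower, or 11.4% of members against 7.64% of all rows. Groups did not overlap in 42 members, with 20 above and 22 below, where 43.5% of all rows did not overlap. In bulk RNA, fewer cells of a type and less RNA per cell cannot be told apart.

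**Figure D1:**
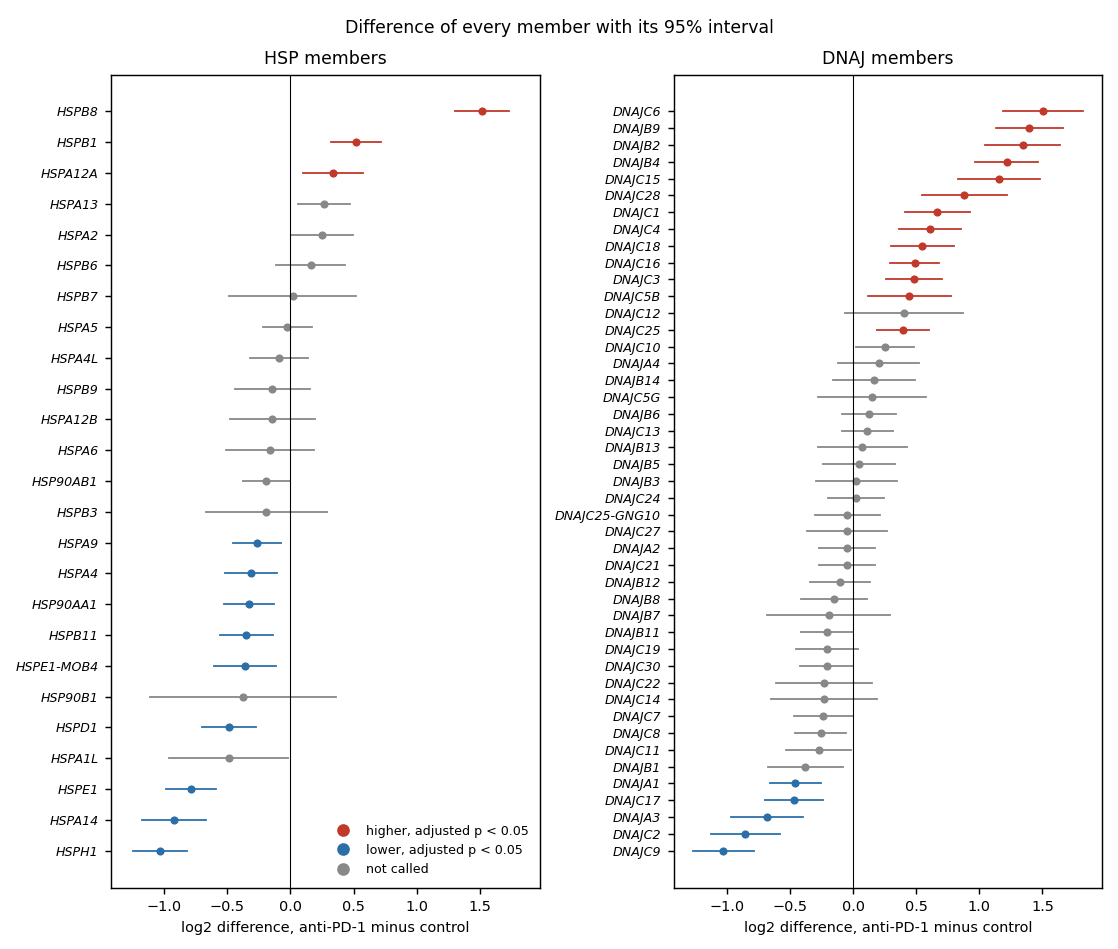
Each point is the log2 difference of a member, anti-PD-1 minus control (horizontal axis), with its 95% interval from limma, for 25 HSP members on the left and 45 DNAJ members on the right. Red points are higher and blue points lower at an adjusted p under 0.05, and grey points were not called. HSPB8 (1.52) and DNAJC6 (1.503) stand at the top, HSPH1 (-1.03) and DNAJC9 (-1.03) at the bottom.

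Promoter sequences were searched for the heat shock element and the ER stress response element. RefSeq promoters of the mouse build GRCm38.p6 (250 bases before to 50 after the start) matched 56 members by symbol. Because the rows carry human accessions, these mouse sequences illustrate the genes and are not shown to be the promoters behind the signals. The heat shock element was searched on both strands as alternating units GAA and TTC with 2 free bases between units. Its 3-unit form was present in 4 of the 56 (7.14%) and in 0.662% of 27025 genes with a promoter. Its 2-unit form, which every 3-unit match contains, was present in 25% of members and 17% of all genes. The stretches around the 3-unit form are shown 5′ to 3′ on the gene's strand, with the element in capitals.
HSPE1 (chr1:55088044-55088091, plus strand): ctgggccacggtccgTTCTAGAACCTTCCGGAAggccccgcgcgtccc
HSPD1 (chr1:55088044-55088091, minus strand): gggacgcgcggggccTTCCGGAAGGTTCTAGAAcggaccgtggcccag
HSPH1 (chr5:149636280-149636308, minus strand, past the start): gctgcagaTTCTGGAAAGTTCtcctcagt
DNAJB6 (chr5:29735837-29735879, plus strand): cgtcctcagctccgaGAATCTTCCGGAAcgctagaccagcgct

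HSPE1 and HSPD1 share their element: the same bases lie upstream of both genes and are read from opposite strands. HSPE1, HSPD1 and HSPH1 were lower in anti-PD-1 libraries and DNAJB6 was not called. Among members with a mouse promoter, the 2-unit form was present in 4 of 10 called lower and in 3 of 14 called higher. The 4 count HSPE1 and HSPD1 apart, although they share their element. The 3 were HSPB8, HSPB1 and DNAJB4. A link between element and direction was not tested. The ER stress response element, searched on both strands as CCAAT and CCACG with 9 free bases between them, was present in 3 of 56 members (5.36%) and 0.137% of all genes. Capitals again mark the element.
HSPA5 (chr2:34772010-34772058, plus strand): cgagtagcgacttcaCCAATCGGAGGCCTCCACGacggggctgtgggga
DNAJC3 (chr14:118937812-118937860, plus strand): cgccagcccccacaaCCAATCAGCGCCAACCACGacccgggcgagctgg
The third was HSP90B1, which holds 2 such matches. A match is a description of letters, not of a bound factor.

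HSP60 and HSP10, the mitochondrial folding chamber, were both lower. HSPE1, which encodes HSP10, had log2 signals of 13.35, 13.30 and 13.39 in anti-PD-1 libraries, against 14.10, 14.20 and 14.10 in control libraries. No library of one group reached into the range of the other, and the difference was -0.79 ± 0.08 (SE, adjusted p = 0.000537). HSPD1, which encodes HSP60, had 14.87, 14.97 and 14.94 in anti-PD-1 libraries, against 15.50, 15.31 and 15.43 in control libraries. Its groups also stood apart, by -0.49 ± 0.09 (adjusted p = 0.0067). The file places HSPD1 on chromosome 2 from 197486581 to 197516737 on the minus strand and HSPE1 from 197499994 to 197503463 on the plus strand. In the mouse build GRCm38.p6 the promoters of both genes lie on chromosome 1, so these positions are not from that build. The build they belong to is not named. A row for the readthrough locus HSPE1-MOB4, which covers HSPE1 and so may share its transcripts, differed by -0.36 ± 0.10 (adjusted p = 0.0371). That last call was lost without any 1 library except control replicate 3 (adjusted p up to 0.105).

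Other chaperones of the mitochondrial matrix were also lower. HSPA9, the HSP70 of mitochondria, had 15.35, 15.36 and 15.37 in anti-PD-1 libraries, against 15.67, 15.57 and 15.64 in control libraries. The groups were apart in every library, but the difference of -0.27 ± 0.08 passed narrowly (adjusted p = 0.0445) and did not pass without any 1 of the 6 libraries (adjusted p from 0.0644 to 0.114). DNAJA3, a J protein that works with HSPA9, had 11.14, 11.00 and 10.88 in anti-PD-1 libraries, against 11.56, 11.87 and 11.63 in control libraries, a difference of -0.68 ± 0.12 (adjusted p = 0.00528). All control signals lay above all anti-PD-1 signals.

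DNAJC15, a J protein of the mitochondrial inner membrane, went the other way. Its signals were 7.18, 7.25 and 7.63 in anti-PD-1 libraries, against 6.13, 6.17 and 6.29 in control libraries, and it rose by 1.16 ± 0.14 (adjusted p = 0.000898). Anti-PD-1 replicate 3 was the highest of the 6, and the group stayed above control without it. DNAJC19, a J protein of the import motor (-0.21), DNAJC11 (-0.27) and DNAJC30 (-0.21), which are also mitochondrial, were lower in every anti-PD-1 library than in any control library yet were not called (adjusted p from 0.112 to 0.189). A dimmer row of DNAJC11 did pass, at -0.42 ± 0.11 (adjusted p = 0.0268).

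HSP110 genes, whose products exchange nucleotide on HSP70, included the member with the largest fall. HSPH1 had 13.57, 13.49 and 13.49 in anti-PD-1 libraries, against 14.61, 14.43 and 14.61 in control libraries. The groups were separate, and HSPH1 fell by 1.03 on the log2 scale (SE 0.09, adjusted p = 0.000242), a 2.05-fold difference. The file places it on chromosome 13 from 31134974 to 31162388. HSPA4 also fell, to a mean of 13.40 ± 0.09 in anti-PD-1 libraries against 13.72 ± 0.04 in control libraries (SD, n = 3 each; adjusted p = 0.0341). Its call was lost without any 1 of the 6 libraries (adjusted p from 0.0544 to 0.104). HSPA4L differed by -0.09 and its groups overlapped.

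Among cytosolic and nuclear HSP70 genes 1 of 4 members was called, or 25% against 29.8% of all rows. HSPA14, which joins the J protein DNAJC2 at the ribosome to receive new chains, had 10.90, 10.91 and 10.87 in anti-PD-1 libraries, against 12.01, 11.69 and 11.75 in control libraries (difference -0.92 ± 0.11, adjusted p = 0.000853). DNAJC2 had 12.19, 12.14 and 11.96 in anti-PD-1 libraries, against 12.85, 12.87 and 13.13 in control libraries (difference -0.85 ± 0.12, adjusted p = 0.0017). Both partners were lower in every anti-PD-1 library. HSPA2 (0.25), the heat-inducible HSPA6 (-0.16) and HSPA1L (-0.49) were not called.

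The main inducible and constitutive HSP70 genes are no members, because their rows carry several symbols. HSPA1A and HSPA1B are near-identical copies that an array cannot be relied on to separate, and a row naming both differed by -0.36 ± 0.08 (adjusted p = 0.0148) and a further one by -0.39 ± 0.10 (adjusted p = 0.0296). The row of HSPA8, the constitutive HSP70, which also names the small nucleolar RNAs SNORD14C and SNORD14D, had 16.49, 16.49 and 16.48 in anti-PD-1 libraries, against 16.62, 16.65 and 16.60 in control libraries. Its groups were apart, but the difference of -0.14 ± 0.08 was not called (adjusted p = 0.248).

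HSP90 genes moved by little. HSP90AA1, the inducible cytosolic form, had 15.71, 15.66 and 15.63 in anti-PD-1 libraries, against 16.01, 15.92 and 16.05 in control libraries, a difference of -0.33 ± 0.08 (adjusted p = 0.0252). The call was lost without any 1 library except control replicate 2 (adjusted p up to 0.0807) and with a replicate block (adjusted p = 0.0702). HSP90AB1, the constitutive form, had 15.98, 15.94 and 15.94 in anti-PD-1 libraries, against 16.15, 16.13 and 16.15 in control libraries. These groups did not overlap either, with a difference of -0.19 ± 0.08 that was not called (adjusted p = 0.116). The single-symbol row of HSP90B1, the HSP90 of the ER, was dim, at a mean of 5.19 ± 0.33 in anti-PD-1 libraries and 5.57 ± 0.60 in control libraries (SD, n = 3 each). A bright row named HSP90B1 and MIR3652 differed by -0.03 ± 0.09 (adjusted p = 0.867).

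Small heat shock proteins held the member with the largest rise. HSPB8, which works with the co-chaperone BAG3 in the removal of misfolded protein by autophagy, had 12.97, 13.01 and 13.01 in anti-PD-1 libraries, against 11.58, 11.49 and 11.37 in control libraries. The groups were far apart beside their spread, with a rise of 1.52 ± 0.09 (adjusted p = 4.69e-05), or 2.86-fold. The file places HSPB8 on chromosome 12 from 119178642 to 119194748. HSPB1, or HSP27, which also binds actin, had 17.20, 17.32 and 17.28 in anti-PD-1 libraries, against 16.73, 16.71 and 16.80 in control libraries, and rose by 0.52 ± 0.08 (adjusted p = 0.00362). It was higher in every anti-PD-1 library.

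HSPB11, a part of the intraflagellar transport machinery of cilia, fell by 0.35 on the log2 scale (SE 0.09, adjusted p = 0.0248), a call lost without any 1 library except control replicate 2 (adjusted p up to 0.0859). HSPB3, HSPB6, HSPB7 and HSPB9 overlapped between groups, with differences between -0.19 and 0.16. A row naming HSPB2 with C11orf52 and their readthrough, no member, differed by 0.49 ± 0.14 (adjusted p = 0.0362). The distant HSP70 relative HSPA12A was called higher at a low signal, with a mean of 5.53 ± 0.03 in anti-PD-1 libraries and 5.19 ± 0.15 in control libraries (SD, n = 3 each; adjusted p = 0.0448). Without any 1 library other than control replicate 3 that call was lost (adjusted p up to 0.121).

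**Figure D2:**
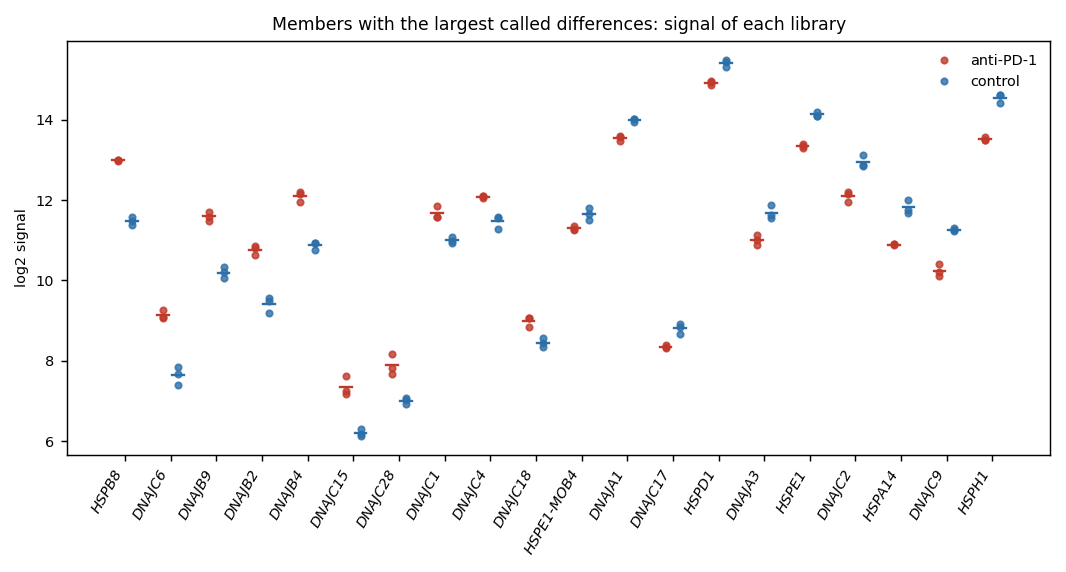
Log2 signals (vertical axis) of each library for the 10 largest called rises and the 10 largest called falls among members with a mean signal above the 25th percentile of all rows, ordered from the largest rise to the largest fall. Red points on the left are the 3 anti-PD-1 libraries and blue points on the right the 3 control libraries, and bars are group means. In each of the 20 the points of the groups do not overlap, which their choice by call and size favours. Of all rows 43.5% did not overlap. Heights of different genes come from different probes and are not compared.

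J proteins of the DNAJB class gave 3 rises and 0 falls among 13 members, so that 23.1% were called, less than the 29.8% of all rows. DNAJB9, an ER protein that passes misfolded chains on for degradation and is a known target of the IRE1 and XBP1 branch of the ER stress response, had 11.48, 11.71 and 11.59 in anti-PD-1 libraries, against 10.34, 10.20 and 10.05 in control libraries. It rose by 1.40 ± 0.11 (adjusted p = 0.00016), with a wide gap between the groups. DNAJB2, which carries ubiquitin-binding motifs and leads clients to the proteasome, had 10.80, 10.63 and 10.85 in anti-PD-1 libraries, against 9.56, 9.49 and 9.20 in control libraries (1.34 ± 0.12, adjusted p = 0.000299). DNAJB4, a cytosolic relative of DNAJB1, had 12.21, 11.95 and 12.14 in anti-PD-1 libraries, against 10.94, 10.77 and 10.94 in control libraries (1.22 ± 0.11, adjusted p = 0.000226). All anti-PD-1 signals of both genes lay above all control signals.

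DNAJB1, the classical heat-inducible J protein, had signals of 13.59, 13.32 and 13.38 in anti-PD-1 libraries, against 13.98, 13.63 and 13.82 in control libraries. The lowest control signal lay just above the highest anti-PD-1 signal, and the difference of -0.38 ± 0.13 was not called (adjusted p = 0.0614). It did pass without control replicate 2 (adjusted p = 0.042) and with a replicate block (adjusted p = 0.0448). Of the DNAJA class 2 of 4 fell, where 15.1% of all rows did: DNAJA3, above, and DNAJA1, a cytosolic partner of HSP70. DNAJA1 had 13.60, 13.56 and 13.47 in anti-PD-1 libraries, against 13.94, 14.03 and 14.03 in control libraries (-0.46 ± 0.085, adjusted p = 0.0068). DNAJA2 and DNAJA4 overlapped between groups.

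Of 27 DNAJC members 10 rose and 3 fell, where 14.7% of all rows rose and 15.1% fell. DNAJC6, or auxilin, which brings HSP70 to clathrin-coated vesicles so that the coat is shed, had 9.09, 9.26 and 9.07 in anti-PD-1 libraries, against 7.85, 7.66 and 7.40 in control libraries. It rose by 1.503 ± 0.13 (adjusted p = 0.000246), and the lowest anti-PD-1 signal lay far above the highest control signal. GAK, its widely expressed relative from the partner list, had a mean of 8.23 ± 0.01 in anti-PD-1 libraries and 8.58 ± 0.27 in control libraries (SD, n = 3 each) and was not called (adjusted p = 0.121). The endosomal J protein DNAJC13 differed by 0.11 and was not called.

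DNAJC9, which hands histones H3 and H4 to HSP70, was the J protein with the largest fall. It had 10.40, 10.20 and 10.12 in anti-PD-1 libraries, against 11.26, 11.31 and 11.23 in control libraries (-1.03 ± 0.10, adjusted p = 0.000396), and its groups were well apart. A dimmer row of the same symbol gave 0.07 ± 0.09 (adjusted p = 0.642). That row is placed from 73247342 to 73248268, outside the stretch of the member's row (73183362 to 73247331). The rows may therefore not read the same transcript. DNAJC17, a nuclear J protein tied to splicing, had 8.32, 8.34 and 8.38 in anti-PD-1 libraries, against 8.92, 8.85 and 8.67 in control libraries (-0.47 ± 0.10, adjusted p = 0.0105). DNAJC8, also a splicing factor, differed by -0.26 without a call (adjusted p = 0.0621).

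The lumenal and membrane proteins of the ER were split. HSPA5, or BiP, the HSP70 of the ER, had 15.30, 15.27 and 15.34 in anti-PD-1 libraries, against 15.31, 15.29 and 15.39 in control libraries. These ranges overlapped, and the 95% interval of the difference ran from -0.22 to 0.17. DNAJC3, which binds misfolded chains in the lumen, had 11.74, 11.61 and 11.65 in anti-PD-1 libraries, against 11.18, 11.29 and 11.08 in control libraries (0.48 ± 0.09, adjusted p = 0.00824). Of the members with the ER stress element shown above, DNAJC3 was thus called and HSPA5 was not; the difference between these genes was not tested.

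DNAJC1, a membrane J protein of the ER, had 11.85, 11.58 and 11.57 in anti-PD-1 libraries, against 11.08, 10.99 and 10.93 in control libraries (0.67 ± 0.11, adjusted p = 0.00385). All 3 anti-PD-1 signals were higher. DNAJB11, a soluble partner of BiP, and the disulphide reductase DNAJC10 were not called, at -0.20 (adjusted p = 0.131) and 0.26 (adjusted p = 0.0937). A dimmer row of DNAJB11 differed by 0.13 and was not called. HSPA13 differed by 0.26 (adjusted p = 0.0603), with all its anti-PD-1 signals above the control signals.

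The other DNAJC rises were smaller. DNAJC28 had 7.66, 7.82 and 8.17 in anti-PD-1 libraries, against 7.07, 7.02 and 6.92 in control libraries (0.88 ± 0.14, adjusted p = 0.00366). DNAJC4 had 12.09, 12.09 and 12.06 in anti-PD-1 libraries, against 11.55, 11.58 and 11.29 in control libraries (0.61 ± 0.10, adjusted p = 0.00479). In both the groups were apart. DNAJC18 had 9.06, 8.85 and 9.06 in anti-PD-1 libraries, against 8.43, 8.34 and 8.56 in control libraries (0.55 ± 0.11, adjusted p = 0.00785). DNAJC16 (0.49) and DNAJC25 (0.40) were higher in every anti-PD-1 library, whereas the readthrough DNAJC25-GNG10, which covers DNAJC25, differed by -0.05. DNAJC5B was called at a low signal, 4.55 ± 0.16 in anti-PD-1 libraries and 4.10 ± 0.20 in control libraries (SD, n = 3 each; adjusted p = 0.0484), and that call was lost without control replicate 1 or 3 or anti-PD-1 replicate 1 or 2 (adjusted p up to 0.142).

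The 40 members that were not called had differences between -0.49 and 0.40. Their 95% intervals reached to either side of the difference by a median of 0.27 and by up to 0.74 for HSP90B1. Of the 40, 10 had an unadjusted p under 0.05 and 7 had a mean signal below 5.08, the 25th percentile of all rows. DNAJB3, DNAJB8, DNAJB13, DNAJC5G, HSPB3, HSPB7 and HSPB9 were those 7.

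**Figure D3:**
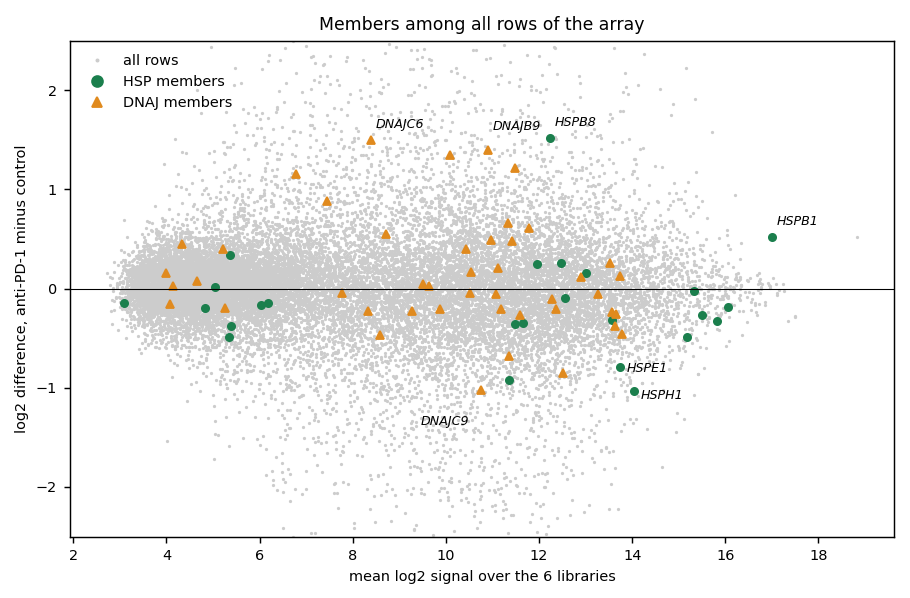
Log2 difference, anti-PD-1 minus control (vertical axis), against the mean log2 signal over the 6 libraries (horizontal axis), with all rows in grey, HSP members as green circles and DNAJ members as orange triangles. HSPB1, the brightest member, shows a rise (0.52), while HSPH1 (-1.03) and HSPE1 (-0.79) lie below 0; 165 rows with a difference beyond 2.5 in size are outside the frame.

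Genes that serve the chaperones were read from a list of partners, of which 51 with a row of their own are reported. Of these 28 were called, 7 higher and 21 lower, with a median difference of -0.26. That is 54.9%, against 29.8% of all rows (14.7% higher, 15.1% lower). Without any 1 library the count ran from 21 to 25 (41.2% to 49%), with 4 to 7 higher and 17 to 19 lower. Of all rows 22.9% to 25.4% were called then. Chaperonin CCT, the cytosolic folding chamber for actin and tubulin, gave 6 falls among 7 measured subunits, between -0.63 for CCT4 and -0.44 for CCT5, and CCT3 (-0.24) was not called (adjusted p = 0.0774). All 7 had groups that did not overlap, where 21.9% of all rows lay below control without overlap. TCP1, the remaining subunit of the list, shares its row with the small nucleolar RNAs SNORA20 and SNORA29, and that row stood at -0.62 ± 0.09 (adjusted p = 0.00236). Of prefoldin, which passes chains to CCT, VBP1 fell (-0.53, adjusted p = 0.00539) and PFDN1 rose (0.51, adjusted p = 0.00542). PFDN2 (-0.20), PFDN4 (-0.24) and PFDN5 (-0.14) were not called, and a row naming PFDN6 with MIR6834 was called lower (-0.46, adjusted p = 0.00599).

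Several genes that work with HSP90 were among the largest falls. NUDC, which stabilises HSP90 clients, had the largest fall of the list, to 11.69 ± 0.02 in anti-PD-1 libraries against 12.58 ± 0.16 in control libraries (SD, n = 3 each; difference -0.89 ± 0.10 SE, adjusted p = 0.000851). Next came AHSA2, a relative of the HSP90 activator AHSA1 (-0.89, adjusted p = 0.00116), CACYBP (-0.86, adjusted p = 0.00105), SUGT1 (-0.81, adjusted p = 0.000908) and the p23 gene PTGES3 (-0.80, adjusted p = 0.00079). STIP1, which bridges HSP70 and HSP90, fell by 0.55 on the log2 scale (adjusted p = 0.00252), while AHSA1 itself differed by -0.14 and was not called. Also not called were FKBP5 (-0.01), PPID (-0.36), UNC45A (0.30), CDC37L1 (0.57) and a row naming CDC37 with MIR1181 (-0.13). In mitochondria, TRAP1, an HSP90 (-0.77, adjusted p = 0.00424), GRPEL1, an exchange factor of HSPA9 (-0.68, adjusted p = 0.00133), and the iron-sulphur J protein HSCB (-0.67, adjusted p = 0.00865) fell as well. The further exchange factor GRPEL2 (-0.24, adjusted p = 0.0819) and the mitochondrial CLPB (-0.30, adjusted p = 0.0561) were not called.

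CRYAB, a small heat shock protein that its symbol keeps out of the members, had the largest positive difference of the list. Its mean signals were 7.70 ± 0.21 in anti-PD-1 libraries and 4.91 ± 0.37 in control libraries (SD, n = 3 each), and the difference was 2.79 ± 0.20 SE (adjusted p = 0.000105). The control mean lies below 5.08, the 25th percentile of all rows, and was not shown to be above background, so the size of this rise is uncertain. By the file's positions its locus overlaps that of the HSPB2 row on the other strand. The collagen chaperone SERPINH1 rose too (0.67, adjusted p = 0.00277). In the ER, the BiP exchange factors SIL1 (0.53, adjusted p = 0.015) and HYOU1 (0.37, adjusted p = 0.0249) and the membrane J protein SEC63 (0.42, adjusted p = 0.015) were higher. The call of SIL1 was lost without control replicate 3 or anti-PD-1 replicate 1 (adjusted p up to 0.0517), and that of SEC63 without anti-PD-1 replicate 2 (adjusted p = 0.0501). That of HYOU1 was lost without control replicate 1 or 3 or anti-PD-1 replicate 1 or 2 (adjusted p up to 0.08).

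**Figure D4:**
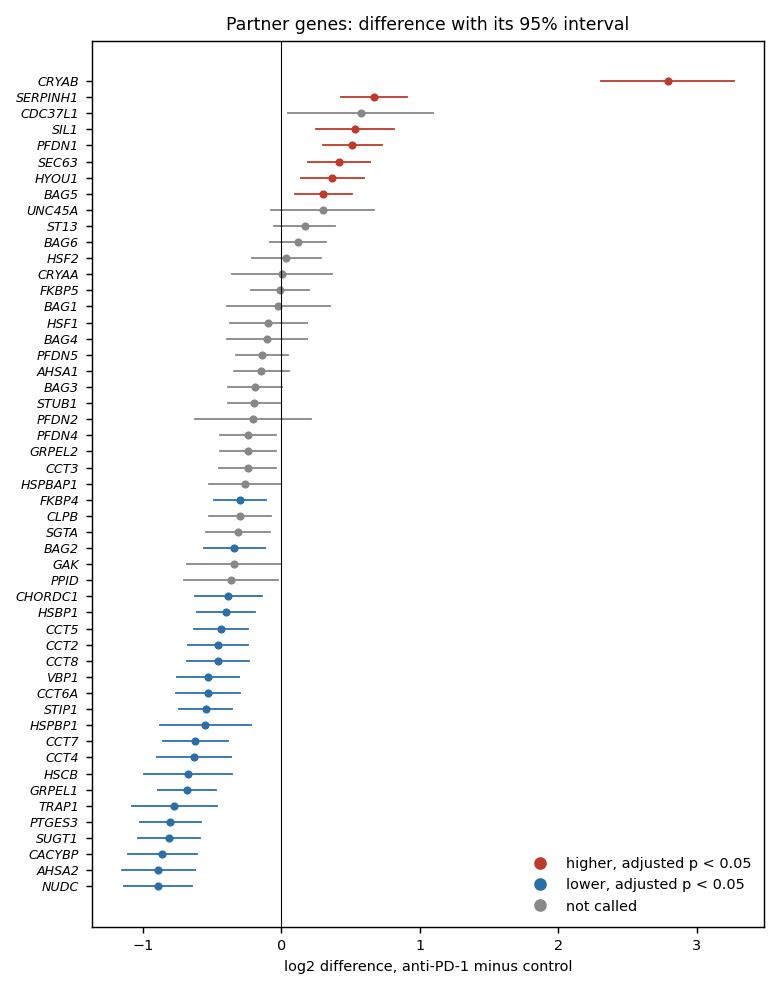
Each point is the log2 difference of a partner gene, anti-PD-1 minus control (horizontal axis), with its 95% interval from limma. Red marks 7 genes that were higher, blue 21 that were lower and grey those not called; CRYAB (2.79) stands far above the rest and NUDC (-0.89) and AHSA2 (-0.89) lie lowest.

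HSF1 itself, the factor that drives the heat shock response, had a mean signal of 11.03 ± 0.09 in anti-PD-1 libraries and 11.12 ± 0.18 in control libraries (SD, n = 3 each) and was not called (adjusted p = 0.615). Of 21 textbook heat-inducible targets of HSF1, many of them members, 18 had a row of their own, and 13 of these were called, 10 lower and 3 higher. The 10 were HSPH1, HSPE1, HSPD1, DNAJA1, HSP90AA1, HSPA4, CACYBP, STIP1, CHORDC1 and FKBP4, and the 3 were HSPB1, CRYAB and SERPINH1. BAG3, which pairs with HSPB8, differed by -0.19 ± 0.08 (adjusted p = 0.142), although its 3 anti-PD-1 signals all lay below the control signals. The list holds 72.2% called rows, against 29.8% of all rows. Its 10 falls became 6 without control replicate 1 or without any 1 anti-PD-1 replicate, when 50% of the list was called. They became 7 without control replicate 3 and 8 without control replicate 2, while the 3 rises were called each time. Of all rows 22.9% to 25.4% were called under these removals. FKBP4 was not called without any 1 of the 6 libraries (adjusted p from 0.0575 to 0.094), and the call of CHORDC1 was lost without any 1 library except control replicate 3 (adjusted p up to 0.0957).

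Markers of growth and of other cells were read beside these results. Proliferation genes MKI67, TOP2A, BUB1, RRM2 and AURKB all fell (5 of 5), and their summed log2 signals ran from 60.02 to 60.98 in anti-PD-1 libraries and from 69.88 to 70.60 in control libraries. Of 4 fibroblast markers 1 rose, COL1A2, with sums from 35.85 to 36.67 in anti-PD-1 libraries and from 31.25 to 33.15 in control libraries. COL1A2 differed by 3.15. COL1A1 (0.36), PDGFRA (0.21) and DCN (0.03) overlapped between groups and were not called. The COL1A1 row covers only positions 50200287 to 50200367. Sums over 5 T cell markers ran from 21.35 to 21.89 in anti-PD-1 libraries and from 21.14 to 22.51 in control libraries, and 4 of the 5 were below the 25th percentile. CD4, which is among those 4, was called lower (-0.46, adjusted p = 0.0108). The leukocyte marker PTPRC ran from 5.53 to 5.78 in anti-PD-1 libraries and from 5.08 to 5.76 in control libraries. For 5 macrophage markers (CD14 higher, CD68 lower) the sums were 38.34 to 38.82 in anti-PD-1 libraries and 38.71 to 39.61 in control libraries. Endothelial markers (0 of 3 called) summed to between 14.05 and 14.96 in anti-PD-1 libraries and between 13.81 and 14.08 in control libraries, and B cell markers (CD79A lower, 1 of 3) to between 18.35 and 19.47 in anti-PD-1 libraries and between 20.11 and 20.33 in control libraries. Among 4 epithelial markers KRT8 rose and EPCAM fell, with sums of 51.04 to 51.29 in anti-PD-1 libraries and 51.59 to 52.72 in control libraries, and CDH1 is a row in conflict with the authors' averages. Below the 25th percentile were also 2 of the 5 macrophage, 2 of the 3 endothelial and 1 of the 3 B cell markers. The part of proliferation and of cell composition in the chaperone results was not tested.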

How the data were processed

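Total RNA, 250 ng per library, was labelled with biotin and read on single-channel arrays. Per the file headers, the authors made gene-level log2 signals with SST-RMA. The submitters' processing notes name Transcriptome Analysis Console without a version. Averages and SDs (log2), a signed fold change (a score here), a p-value and a false discovery rate were deposited too. By that table's rate 30 members passed 0.05, all 30 of them called here. Of 22206 identifiers 21448 had signals, equal in workbook and series value table. The 758 without signals all stood at the end of the workbook. Whether each identifier belongs to the row beside it was not settled. Library medians lay between 7.71 and 7.77, and within-group correlations over rows between 0.9955 and 0.9963.

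The test was limma's (version 3.58.1, R 4.3.3): a linear model on group alone was moderated by eBayes, and 2-sided p-values were adjusted over all rows by Benjamini-Hochberg (threshold 0.05). The script was tested on simulated data. The precision is limited by the number of arrays. Averages were compared with Tukey biweight means at a tolerance of 0.05 and SDs at 0.02. Members, lists and tests were chosen with earlier results of these data known. Per-library signals are given for a fixed set of chaperones and for up to 10 rises and 10 falls of largest size among called members above the 25th percentile. Partners named by rule are the 4 largest rises and falls, HSF1 and BAG3. CHORDC1 and FKBP4 are named as HSF1 targets. HSPBP1, HSBP1 and BAG2 (called lower) and BAG5 (called higher) are not described above. Chosen after their values were seen were the other subunits of CCT and prefoldin, GAK, STIP1, PTGES3, AHSA1, FKBP5, PPID, UNC45A and CDC37L1. So were TRAP1, GRPEL1, GRPEL2, CLPB, HSCB, HYOU1 and SEC63. A further gene of the partner list is not reported here. Same-numbered replicates did not pair (correlations of deviations 0.013, -0.024 and 0.013). Alternatives covered scaling (quantile, median), removal of dim rows, a single row for each symbol, the prior, array weights, a replicate block, removal of each library, other thresholds, and an exchange of group names.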

Additional observations from a re-analysis of the deposited data

How the results depend on the processing

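The count of called members, 30, stayed within 1.5 times under every alternative except a further limit of 1.5-fold, which left 15 (9 higher, 6 lower). That limit left 12 partners, 5 HSF1 targets and 3705 of all rows, fewer by construction. At an adjusted p under 0.01 there were 8 lower members, 18 partners and 3870 rows. Without each replicate in turn, called members ranged from 23 to 27, and lower members from 9 to 12, while 22.9% to 25.4% of all rows were called. In every such fit 23 members were called, 14 higher and 9 lower. A replicate block gave 26 members (15 higher, 11 lower), losing HSP90AA1, HSPA12A, HSPA4, HSPA9, HSPB11 and HSPE1-MOB4 and gaining DNAJB1 and HSPA1L. A trended robust prior gave 37 (17 higher, 20 lower), and the median filter 36 (15 higher, 21 lower). HSP members called lower, 9, ranged from 4 to 6 without each replicate, and HSF1 targets, 13, from 9 to 11. The median difference of members, -0.05, was -0.10 after median centring and 0.05 with the group names exchanged.

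Without each replicate in turn, HSF1 ranged from -0.145 to 0.01 (above 0 without control replicate 2) and HSPA5 from -0.0467 to 0.0033 (above 0 without control replicate 3); neither was called. The cause was not tested. With the names exchanged every sign turns by construction: HSPA5 0.0267, HSPA9 0.27, HSPH1 1.03, HSP90AA1 0.33, HSP90AB1 0.19, HSP90B1 0.38, HSPD1 0.49, HSPE1 0.79, HSPB1 -0.52, HSPB8 -1.52, DNAJA1 0.46, DNAJB1 0.38, DNAJB9 -1.40, DNAJC3 -0.48, DNAJC6 -1.503, DNAJB2 -1.34, DNAJB4 -1.22, DNAJC15 -1.16, DNAJC28 -0.88, DNAJC1 -0.67, DNAJC4 -0.61, DNAJC18 -0.55, DNAJC9 1.03, HSPA14 0.92, DNAJC2 0.85, DNAJA3 0.68, DNAJC17 0.47, HSPE1-MOB4 0.36, CRYAB -2.79, SERPINH1 -0.67, SIL1 -0.53, PFDN1 -0.51, NUDC 0.89, AHSA2 0.89, CACYBP 0.86, SUGT1 0.81, HSF1 0.0933 and BAG3 0.19.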
